A study of Homo sapiens with 16 samples.

Results

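The immunoglobulin constant genes and the J chain gene were examined in P493-6 cells under 2 levels of MYC, with or without an inhibitor of the N-myristoyltransferases, which attach the fatty acid myristate to proteins. P493-6 is a human B cell line immortalised with Epstein-Barr virus, in which a MYC transgene is switched down by doxycycline and EBNA2, a transcription factor of the virus, acts only with oestrogen. The genes were taken by symbol: IGHM, IGHD, IGHG1, IGHG3, IGHA1 and IGHE for the heavy chain classes, IGKC, IGLC2 and IGLC3 for the light chains, and JCHAIN. All 10 were found among the 58051 rows of the deposited table. There were 4 groups of 4 libraries, all from the same transgenic line and all collected after 24 h of treatment. High MYC controls received the DMSO vehicle, and the labels list no additive that sets their MYC level. High MYC inhibitor cells received 100 nM IMP1088, which blocks the enzymes NMT1 and NMT2. Medium MYC controls and medium MYC inhibitor cells had in addition been given 0.1 µg/mL doxycycline and 1 µM beta-estradiol 24 h earlier. Since these additives set the MYC level, the effects of MYC, doxycycline, estradiol and EBNA2 activity cannot be told apart.

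An antibody is built from paired heavy and light chains, each with a variable part that binds antigen and a constant part that sets its class. A B cell rearranges variable segments once, keeps either kappa or lambda light chains as a rule, and first expresses the mu and delta heavy chains by alternative processing of a shared transcript. Class switching then joins the same variable part to a gamma, alpha or epsilon constant gene further along chromosome 14. The J chain is a small protein that links IgM pentamers and IgA dimers for secretion, and its gene is known for activation when B cells become antibody-secreting cells.

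Library depth ran from 8755296 to 13858534 reads, recovered as whole reads from the deposited normalized counts. The mean normalized count of MYC itself was 31649 ± 2130 (SD, n = 4) at high MYC in controls, 47542 ± 505 with the inhibitor, 959 ± 48.7 in medium MYC controls and 1382 ± 51.2 with the inhibitor, so the groups followed their labels. NMT1 lay between 1417 and 1807 in every library, and NMT2 between 1.04 and 27.2. The B cell markers were present, led by MS4A1 (CD20) at a mean normalized count of 15961 over the 16 libraries. Replicates of a group differed by more than sampling noise in every pair, with a chi-square per degree of freedom between 1.68 and 9.95. The labels do not say whether replicates came from separate cultures, so p-values measure only the spread between these libraries.

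Of the 10 genes, 7 were expressed, meaning a mean of at least 10 reads over the 16 libraries, and these 7 also passed the filter for testing. Reads thus fell on the mu, delta and alpha-1 heavy chain constant genes, the kappa and lambda light chain constant genes and the J chain gene. Counts of a constant gene do not show whether its transcripts also held a variable part. IGHG1 had 17 reads over all libraries and at most 3 in any of them. IGHG3 also had 17 reads in all, with none in the 4 high MYC controls, 1 in the high MYC inhibitor libraries, 5 in the medium MYC controls and 11 in the medium MYC inhibitor libraries, and at most 5 in a library. IGHE had 0 reads in all 16. A count of 0 in a library allows up to 3 reads, for counting error only, so lower levels of IGHE were not detectable at this depth. Only IGHG3 exceeded 3 reads in a library, in medium MYC inhibitor replicates 2 and 3. Of the heavy chain constant genes outside the list, IGHG2 and IGHG4 were also listed at 0 in all libraries and IGHA2 had a mean normalized count of 12.5. IGHM took 96.5% ± 0.0652 (SD, n = 4) of all heavy chain constant reads in high MYC controls and 93.0% ± 0.399 in medium MYC controls.

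The order of the levels was compared per kilobase of annotated exon, as normalized counts per kb. In high MYC controls the order was IGKC at 21316 ± 1589 (SD, n = 4), IGHM at 13237 ± 655, JCHAIN at 4534 ± 399, IGLC2 at 2252 ± 114, IGLC3 at 1127 ± 105, IGHA1 at 436 ± 29.7 and IGHD at 155 ± 14.05. No neighbours in that order overlapped between libraries there or in the high MYC inhibitor libraries. In medium MYC controls IGKC stood at 21009.7 ± 1470 and IGHM at 4076 ± 235, whereas JCHAIN, at 395 ± 36.5, stood under IGLC2, at 466 ± 48.6, with its highest library (436) just above the lowest of IGLC2 (434). With the inhibitor at medium MYC, JCHAIN and IGLC2 overlapped again, as did IGHA1 and IGLC3. Delta was the least abundant of the 7 in all 4 groups.

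**Figure D1:**
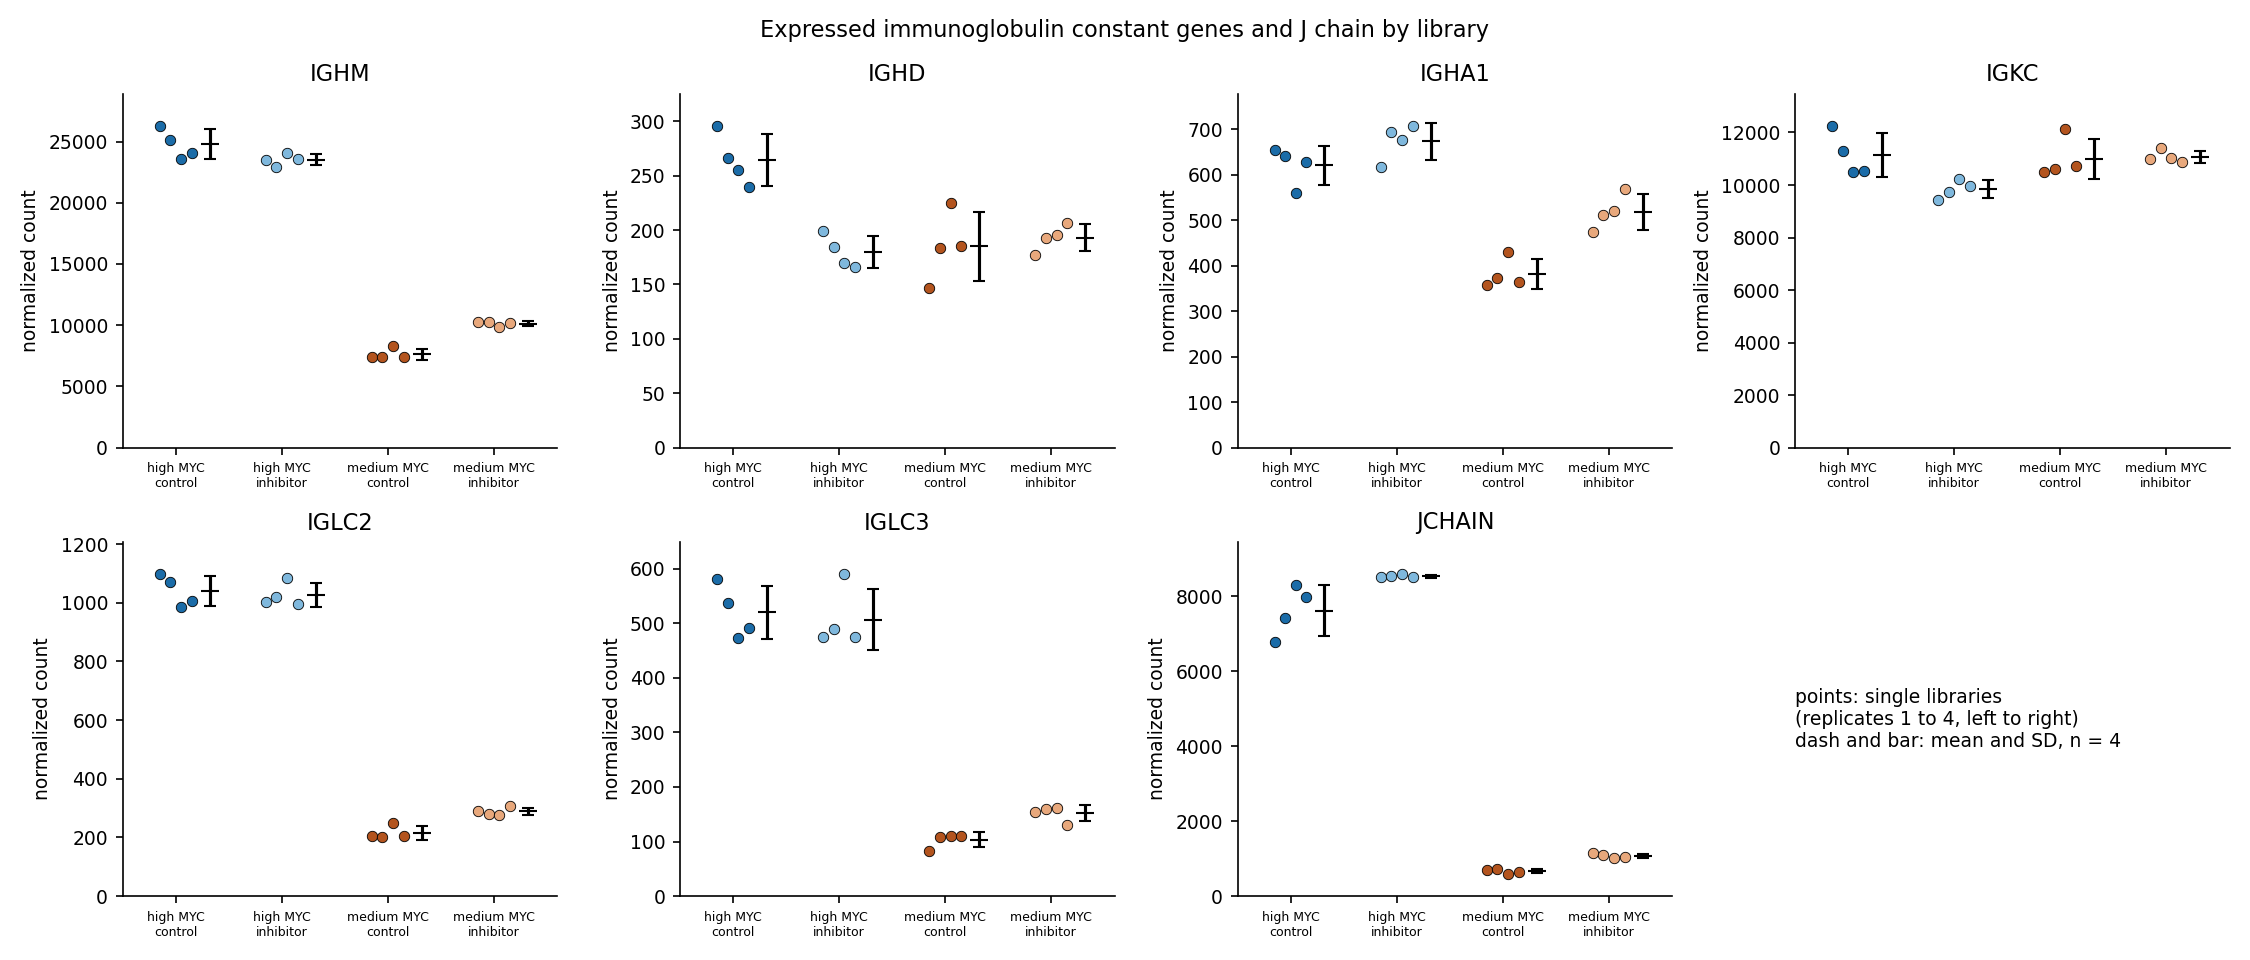
Normalized counts of the 7 expressed genes (y axis, linear from 0) in the 4 groups (x axis). Points are single libraries, and the dash and bar give the mean and SD (n = 4). IGHM, IGLC2, IGLC3 and JCHAIN sit far lower at medium MYC, while the IGKC groups lie between 9423 and 12259 throughout.

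Between medium and high MYC, most of these transcripts fell, and J chain fell furthest. In the controls, 6 of the 7 tested genes were lower at medium MYC and none was higher by limma at an adjusted p-value under 0.05. Calls were common in this comparison: of the 13765 tested genes 76.2% were called, 37.3% lower and 38.9% higher, and in 69.2% the groups did not overlap. In size, the changes of JCHAIN, IGLC3, IGLC2 and IGHM exceeded those of 97.5%, 94.6%, 94.4% and 90.3% of tested genes, while IGHA1, IGHD and IGKC stood at 63.2%, 51.7% and 2.28%. The median log2 change of the 7 genes was -1.70, against 0.02 over all tested genes, whose interquartile range ran from -0.49 to 0.51. In bulk RNA a lower count from fewer expressing cells and one from less RNA per cell cannot be told apart.

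JCHAIN had normalized counts of 6778, 7409, 8301 and 7981 in the 4 high MYC controls. In the medium MYC controls the counts were 685, 733, 587 and 649.9. All 4 medium libraries lay far under the lowest high MYC library. The log2 change was -3.52 (SE 0.06, limma adjusted p-value 4.72e-22), an 11.5-fold difference. In the libraries with the inhibitor the counts were 8501, 8533, 8589 and 8514 at high MYC and 1141, 1101, 1011 and 1029.5 at medium MYC. There the log2 change between MYC levels was -3.00 (SE 0.06, limma adjusted p-value 5.94e-21). JCHAIN lies on the minus strand of chromosome 4 (70655541 to 70681817, GRCh38) and has an exon overlap of 87 bases with ENAM on the opposite strand. Whether the counting used strand is not given in the sources used here.

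The promoter of JCHAIN is shown because the gene changed most of the 10 and was the only one with an entry in the RefSeq promoter table (GRCh38). It covers chr4:70666459-70666758 on the minus strand, from 250 bases before to 50 bases after the annotated start, written 5′ to 3′. Capitals mark ATGCAAA, the octamer motif of B cell promoters without its last base.
JCHAIN promoter: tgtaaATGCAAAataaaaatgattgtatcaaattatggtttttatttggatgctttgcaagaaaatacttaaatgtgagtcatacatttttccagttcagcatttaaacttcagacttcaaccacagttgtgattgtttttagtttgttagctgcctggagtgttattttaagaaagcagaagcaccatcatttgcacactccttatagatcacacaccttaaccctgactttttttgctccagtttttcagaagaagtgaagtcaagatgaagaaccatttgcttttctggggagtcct
ATGCAAA occurred 1 time, 245 bases before the start on the gene's strand, and 4.46% of the 35116 promoters of the same length held it on either strand. The full octamer ATGCAAAT, which includes ATGCAAA, had no match and was held by 1.77% of promoters. The E-box CACGTG, to which MYC and MAX bind, also had no match here and was held by 7.26% of promoters. The same held for TGGGAA, the core bound by RBPJ, the DNA-binding partner of EBNA2 (24.0% of promoters), and for GAGGAA (27.9%), an ETS core with flank. Both strands were searched for each motif. These letters describe this window alone.

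IGHM, which encodes the mu constant region of membrane and secreted IgM together in this table, was the most abundant heavy chain row and also fell. Its normalized counts were 26299, 25163, 23546 and 24056 in high MYC controls. They were 7394, 7391, 8286 and 7434 in medium MYC controls. The groups were far apart, at 24766 ± 1225 (SD, n = 4) against 7626 ± 440, a difference of -1.70 in log2 units (SE 0.04, limma adjusted p-value 2.33e-20). With the inhibitor the counts were 23466, 22937, 24067 and 23578 at high MYC and 10258, 10249.7, 9863 and 10141 at medium MYC, for a change of -1.21 on the log2 scale (SE 0.04, limma adjusted p-value 6.71e-18). The gene lies at 105851705 to 105856218 on the minus strand of chromosome 14, next to IGHD, which ends at 105845678.

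IGHD encodes the delta chain of IgD, which naive B cells display beside IgM. It had 296, 266, 255 and 239 in high MYC controls and 147, 183, 225 and 185 in medium MYC controls, which did not overlap. The log2 change was -0.52 (SE 0.10, limma adjusted p-value 8.55e-05), less than that of IGHM. Under the inhibitor no difference was called: the counts were 199, 184, 170.2 and 166 at high MYC and 177, 193, 195 and 207 at medium MYC, a log2 change of 0.10 with a 95% interval from -0.11 to 0.31.

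IGHA1, the alpha-1 chain of IgA, had 655, 640.1, 559.6 and 627 in high MYC controls and 357, 373, 429.7 and 365 in medium MYC controls. The medium libraries all lay lower, and the log2 change was -0.70 (SE 0.07, limma adjusted p-value 3.28e-09). With the inhibitor, 616, 693, 676 and 708 at high MYC stood against 473, 511, 520.1 and 568 at medium MYC, a difference of -0.38 in log2 units (SE 0.07, limma adjusted p-value 2.47e-05). Of the 50-base words of its transcripts, 32.5% also occur in IGHA2, so reads of these paralogs could be divided between the rows. The gene sits at 105703995 to 105708665 on chromosome 14, past the gamma genes IGHG3 and IGHG1, whose rows were near 0.

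**Figure D2:**
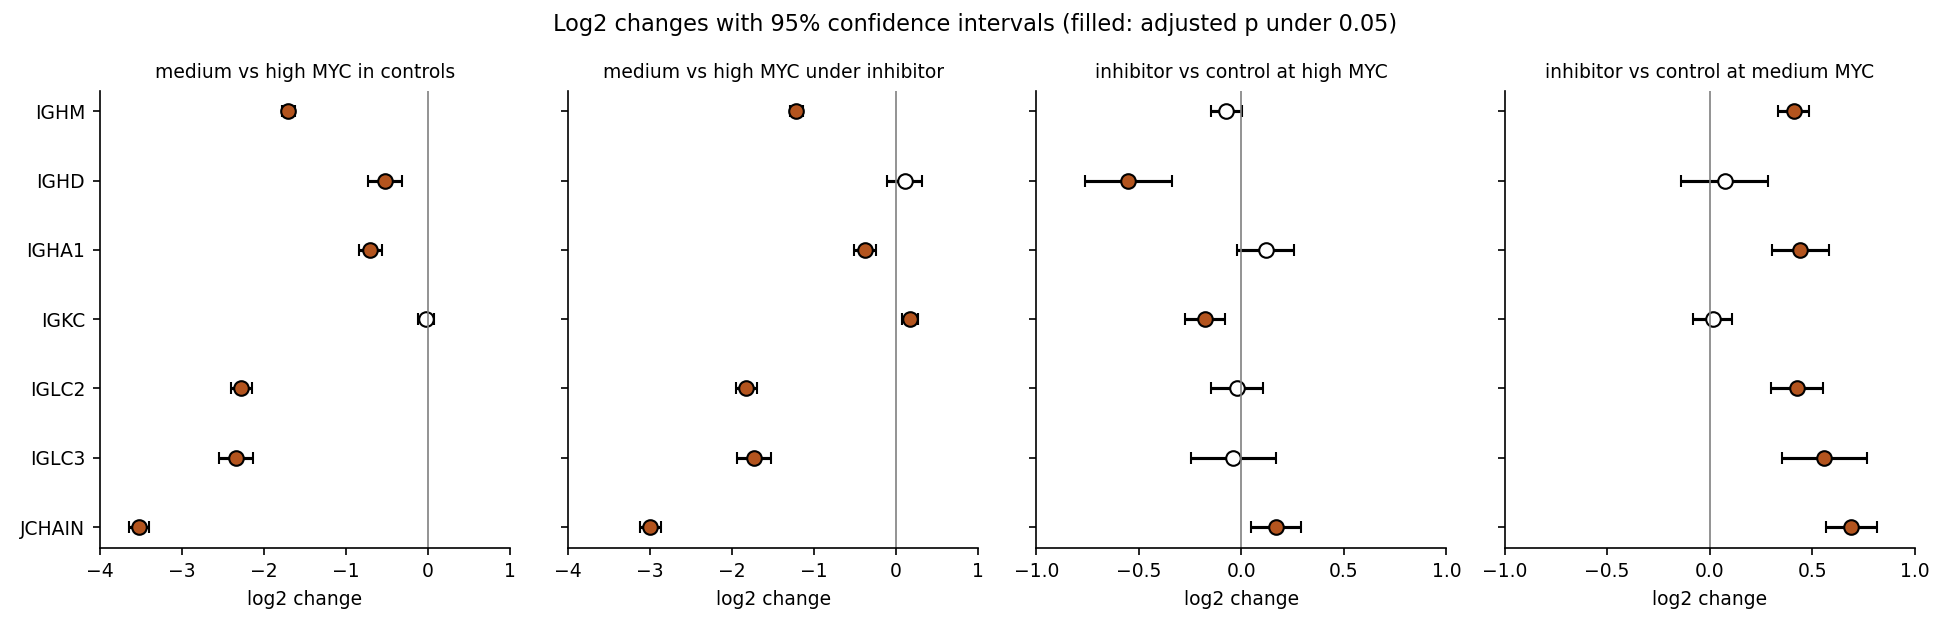
Log2 changes (x axis) with 95% confidence intervals for the 7 tested genes (y axis) in 4 comparisons. Filled points have a limma adjusted p-value under 0.05. JCHAIN moves furthest between MYC levels (-3.52 in controls) and IGKC is at -0.02 in controls, a value that turns positive (0.34) with quantile normalization. The x axis is wider in the panels between MYC levels.

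The kappa gene did not follow the others. IGKC had 12259, 11311, 10506 and 10516 in high MYC controls and 10477, 10621, 12131 and 10723 in medium MYC controls. The ranges overlapped almost in full, and the log2 change was -0.02 (SE 0.05, limma adjusted p-value 0.697) with a 95% interval from -0.12 to 0.08. With the inhibitor, 9423, 9743, 10223 and 9958 at high MYC lay under 10977, 11414, 11045 and 10874 at medium MYC, for a change of 0.17 on the log2 scale (SE 0.05, limma adjusted p-value 0.00206). The sign of these small values depends on scaling. Quantile normalization gave 0.34 in controls (limma adjusted p-value 2.31e-08), while a correction for GC content gave -0.23 (limma adjusted p-value 1.94e-06) in controls and -0.06 (limma adjusted p-value 0.117) under the inhibitor. Under each of these settings IGKC still differed by less than IGHM, IGLC2, IGLC3 and JCHAIN. IGKC is a single exon at 88857161 to 88857683 on the minus strand of chromosome 2 and shares no 50-base word with another gene.

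Both lambda genes fell. IGLC2 had 1097, 1071, 987 and 1006 in high MYC controls and 205, 200.3, 249 and 206 in medium MYC controls, a difference of -2.27 in log2 units (SE 0.06, limma adjusted p-value 1.00e-18). IGLC3 had 581, 537, 473 and 491 against 82.4, 108, 110.3 and 111, for a change of -2.33 on the log2 scale (SE 0.10, limma adjusted p-value 3.37e-15). In both genes every medium MYC control lay under every high MYC control. With the inhibitor IGLC2 had 1002, 1020.45, 1086 and 995 at high MYC and 290.1, 280.1, 277 and 307 at medium MYC, a log2 change of -1.83. IGLC3 had 474, 489, 589.9 and 474 against 154, 159.9, 162 and 130.1, a log2 change of -1.74. The limma adjusted p-values were 3.93e-17 and 5.98e-13. Under the inhibitor, then, 5 of the 7 genes were lower and 1, IGKC, was higher at medium MYC by limma, where 77.5% of all tested genes were called, 37.8% lower and 39.7% higher, and 72.6% had groups that did not overlap. The median of the 7 was -1.21, against 0.02 for all genes.

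These lambda rows are hard to count apart, which their sequences show. The first 120 bases of IGLC1 (chr22:22895375-22895494), IGLC2 (chr22:22900976-22901095) and IGLC3 (chr22:22906342-22906461) are given on the plus strand of GRCh38, from GENCODE release 29 transcripts. Capitals mark each of the 11 positions where the 3 are not alike.
IGLC1: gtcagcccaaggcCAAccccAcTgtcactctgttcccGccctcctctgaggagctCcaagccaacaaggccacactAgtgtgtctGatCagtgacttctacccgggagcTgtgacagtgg
IGLC2: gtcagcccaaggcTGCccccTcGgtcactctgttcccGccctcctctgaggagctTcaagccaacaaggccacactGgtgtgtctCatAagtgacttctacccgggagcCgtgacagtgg
IGLC3: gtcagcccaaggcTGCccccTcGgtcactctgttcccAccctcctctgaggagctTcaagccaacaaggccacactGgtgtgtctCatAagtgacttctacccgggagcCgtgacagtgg
IGLC2 and IGLC3 differed at 1 of these 120 bases and at 4 of the 462 bases of the whole exon, and 58.1% of the 50-base words of each occur in the other. IGLC1 differed from IGLC2 at 10 and from IGLC3 at 11. The values of IGLC2 and IGLC3 are therefore uncertain as single genes. IGLC1 and IGLL5, a lambda-like gene of the same locus, also fell, with log2 changes of -2.34 (SE 0.07, limma adjusted p-value 2.77e-18) and -2.12 (SE 0.06, limma adjusted p-value 1.01e-18) in the controls. Of the 50-base words of IGLC2, 11.6% occur in IGLL5. How much sequence IGLL5 shares with IGLC1 was not measured, so these falls may not be separate measurements.

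Variable segments are counted in rows of their own and were read beside the constant genes. How much sequence the variable rows share with other genes was not measured. IGHV3-49 held 97.0% ± 0.873 (SD over 16 libraries) of all heavy variable reads. It changed by -1.66 between MYC levels in controls (SE 0.03, limma adjusted p-value 3.19e-22), beside -1.70 for IGHM. Per 100 IGHM reads there were 14.2 ± 1.04 (SD, n = 4), 15.2 ± 0.442, 14.6 ± 0.989 and 15.1 ± 0.237 IGHV3-49 reads, with the high MYC groups first and the control before the inhibitor. The variable and constant rows thus fell together and kept a near constant ratio. IGKV1-17 held 89.9% ± 1.27 (SD over 16 libraries) of kappa variable reads and stood at 39.7 ± 1.97, 38.1 ± 2.32, 39.4 ± 0.631 and 37.9 ± 1.09 (SD, n = 4) per 100 IGKC reads in the same order. Its log2 change in controls was -0.03 (SE 0.05, limma adjusted p-value 0.564), as close to 0 as that of IGKC.

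The lambda locus had no such leading segment. Lambda variable reads were 4.24 ± 0.112 (SD, n = 4) per 100 lambda constant reads in high MYC controls and 10.7 ± 1.44 in medium MYC controls, where kappa had 43.4 ± 1.92 and 43.5 ± 0.731. The leading segment of each library held 22.5% ± 3.56 of the lambda variable reads (SD over 16 libraries). It was IGLV6-57 in 12 libraries, and IGLV1-44 or IGLV1-47 in the 4 medium MYC inhibitor libraries. IGLV6-57 had a mean of 27.1 normalized counts and fell by 1.04 on the log2 scale in the controls (limma adjusted p-value 1.10e-04). Of the 18 other immunoglobulin rows that passed the filter, 12 were lower and 3 higher at medium MYC in the controls, with a median log2 change of -0.93, where 37.3% of all tested genes were lower and 38.9% higher.

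**Figure D3:**
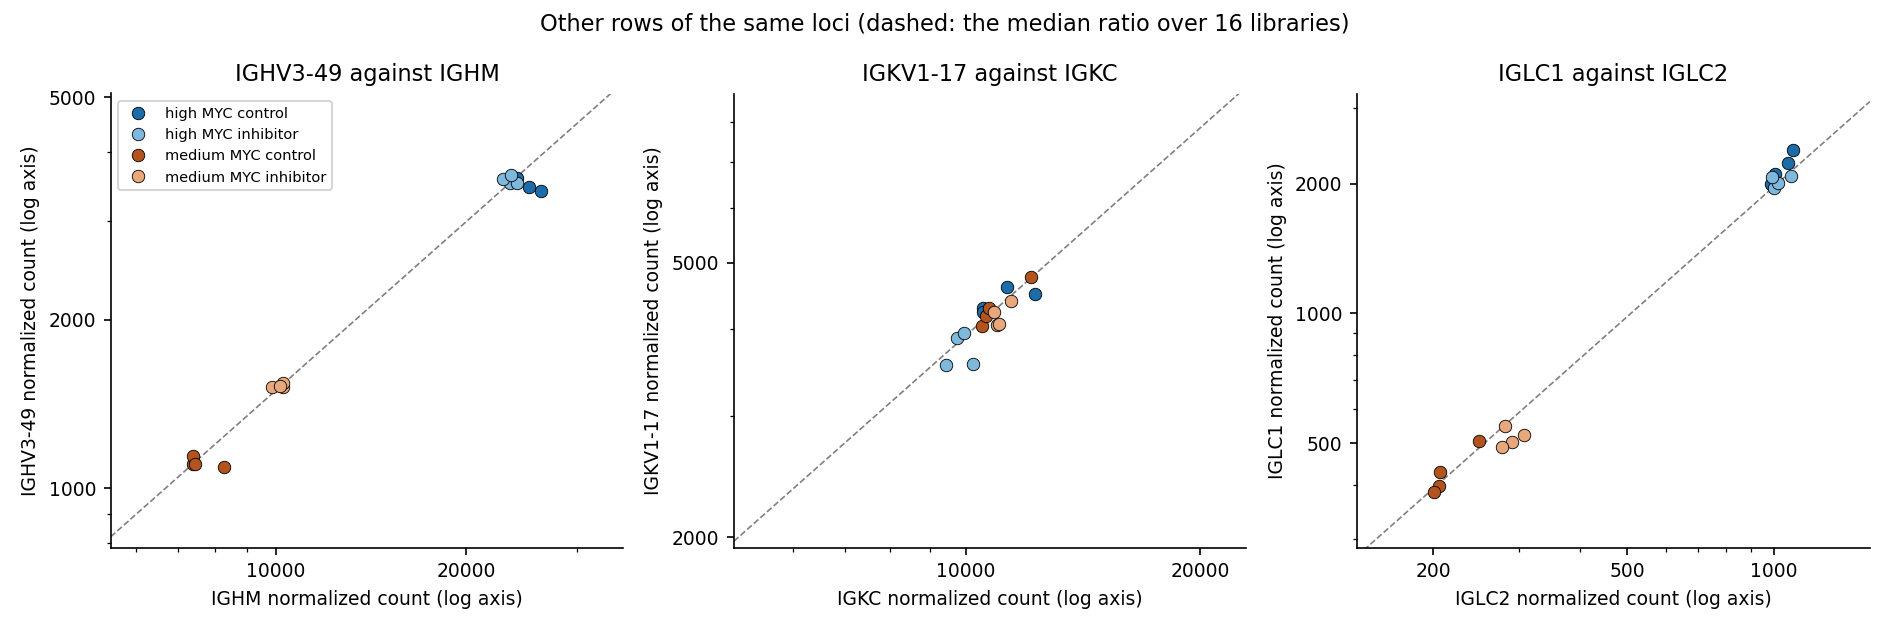
Normalized counts of a second row of the same locus (y axis, log) against the constant gene (x axis, log) in the 16 libraries, coloured by group. The dashed line is the median ratio. IGHV3-49 follows IGHM down at medium MYC, IGKV1-17 and IGKC overlap between groups, and IGLC1 follows IGLC2.

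The inhibitor raised most of these transcripts at medium MYC. There, 5 of the 7 genes were higher and none lower by limma at an adjusted p-value under 0.05. Over all tested genes 26.3% were called, 11.7% higher and 14.6% lower, and 27.9% had groups that did not overlap. With equal library totals the split of all calls, 1606 higher and 2012 lower, became 1962 and 1659. The median log2 change of the 7 was 0.43, against -0.01 for all genes. JCHAIN rose from 664 ± 61.3 (SD, n = 4) to 1070.5 ± 60.7, a difference of 0.69 in log2 units (SE 0.06, limma adjusted p-value 1.24e-08). IGHM rose from 7626 ± 440 to 10128 ± 185, for a change of 0.41 on the log2 scale (SE 0.04, limma adjusted p-value 2.07e-08). In each of the 5 genes all 4 inhibitor libraries lay above all 4 controls.

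Among the lambda genes, IGLC3 rose by 0.56 (SE 0.10, limma adjusted p-value 1.90e-04) and IGLC2 by 0.43 (SE 0.06, limma adjusted p-value 1.52e-05) on the log2 scale. IGHA1 rose by 0.44 (SE 0.07, limma adjusted p-value 2.88e-05). IGKC and IGHD did not pass the test, with log2 changes of 0.01 (95% interval -0.08 to 0.11) and 0.07 (95% interval -0.14 to 0.28). The variable row IGHV3-49 rose by 0.45 (SE 0.03, limma adjusted p-value 4.38e-11), as its constant gene did. The medium MYC controls serve in this comparison and in that between MYC levels in controls, so the fall at medium MYC and the rise with the inhibitor are not independent measurements. The means of the 5 raised genes stayed under their means at high MYC. JCHAIN at medium MYC with the inhibitor ranged from 1011 to 1141, against 6778 or more at high MYC, whereas for IGHA1 the highest of these libraries (568) lay above the lowest high MYC control (559.6).

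At high MYC the inhibitor gave fewer calls among these genes. By limma, 1 of 7 was higher and 2 were lower at an adjusted p-value under 0.05, where 26.8% of all tested genes were called, 10.5% higher and 16.3% lower, and 26.7% had groups that did not overlap. Quantile normalization moved that split over all genes from 1442 higher and 2247 lower to 1727 higher and 1770 lower. IGHD fell from 264 ± 24.0 (SD, n = 4) to 179.9 ± 14.8, a difference of -0.55 in log2 units (SE 0.10, limma adjusted p-value 3.02e-04), and its groups did not overlap. IGKC fell from 11148 ± 831 to 9837 ± 339, for a change of -0.18 on the log2 scale (SE 0.05, limma adjusted p-value 0.00623). Its variable row IGKV1-17 fell by 0.24 on the log2 scale (SE 0.05, limma adjusted p-value 4.99e-04).

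JCHAIN was the gene called higher at high MYC, from 7617 ± 670 (SD, n = 4) to 8534 ± 38.7, a difference of 0.17 in log2 units (SE 0.06, limma adjusted p-value 0.03995). This call was weak. It was lost without high MYC control replicate 1 or 2 or without any 1 of the 4 high MYC inhibitor libraries, with limma adjusted p-values from 0.0697 to 0.162, and without high MYC control replicate 1 the log2 change was 0.11. That library, with 13858534 reads, had the lowest JCHAIN value of its group. It had the highest IGHM, IGHD, IGHA1, IGKC, IGLC2 and IGLC3 values. The GC content of JCHAIN is 38.25%, and that of the other tested members lies between 53.35% (IGKC) and 63.71% (IGHA1). Whether the depth of that library or GC content bears on these values was not tested. IGHM, IGHA1, IGLC2 and IGLC3 did not pass the test, with log2 changes of -0.07 (95% interval -0.15 to 0.00214), 0.12 (-0.02 to 0.26), -0.02 (-0.15 to 0.11) and -0.04 (-0.25 to 0.17). IGHA1 passed after the correction for GC content, at 0.21 (limma adjusted p-value 9.31e-04), and IGHM after quantile normalization, at -0.13 (limma adjusted p-value 0.00349).

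The responses to the inhibitor were then compared between the MYC levels, as the response at high minus that at medium MYC. By limma 6 of the 7 genes differed, all with the lower response at high MYC, where 8.63% of all tested genes were called, 5.33% with the lower and 3.31% with the higher response at high MYC. The difference was -0.48 for IGHM (SE 0.05, limma adjusted p-value 1.62e-06), -0.52 for JCHAIN (SE 0.08, 2.28e-04), -0.45 for IGLC2 (SE 0.09, 0.00160) and -0.60 for IGLC3 (SE 0.14, 0.00806). For IGHD it was -0.62 (SE 0.14, limma adjusted p-value 0.00691), where the fall lay at high MYC. IGHA1 was at -0.32 (SE 0.09, limma adjusted p-value 0.0340) and lost the call without any 1 of 11 of the 16 libraries: high MYC control replicates 1, 2 and 4, high MYC inhibitor replicates 1 and 3, medium MYC control replicates 1, 2 and 4, and medium MYC inhibitor replicates 2, 3 and 4, with limma adjusted p-values from 0.0507 to 0.0799. IGKC had -0.19 (SE 0.07, limma adjusted p-value 0.0758) and passed without high MYC control replicate 3 (0.0431) or 4 (0.0463), without medium MYC control replicate 3 (0.00679), with equal library totals (0.0263) and after the GC correction (0.0219). The variable row IGHV3-49 had a difference of -0.43 (SE 0.04, limma adjusted p-value 1.14e-07).

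**Figure D4:**
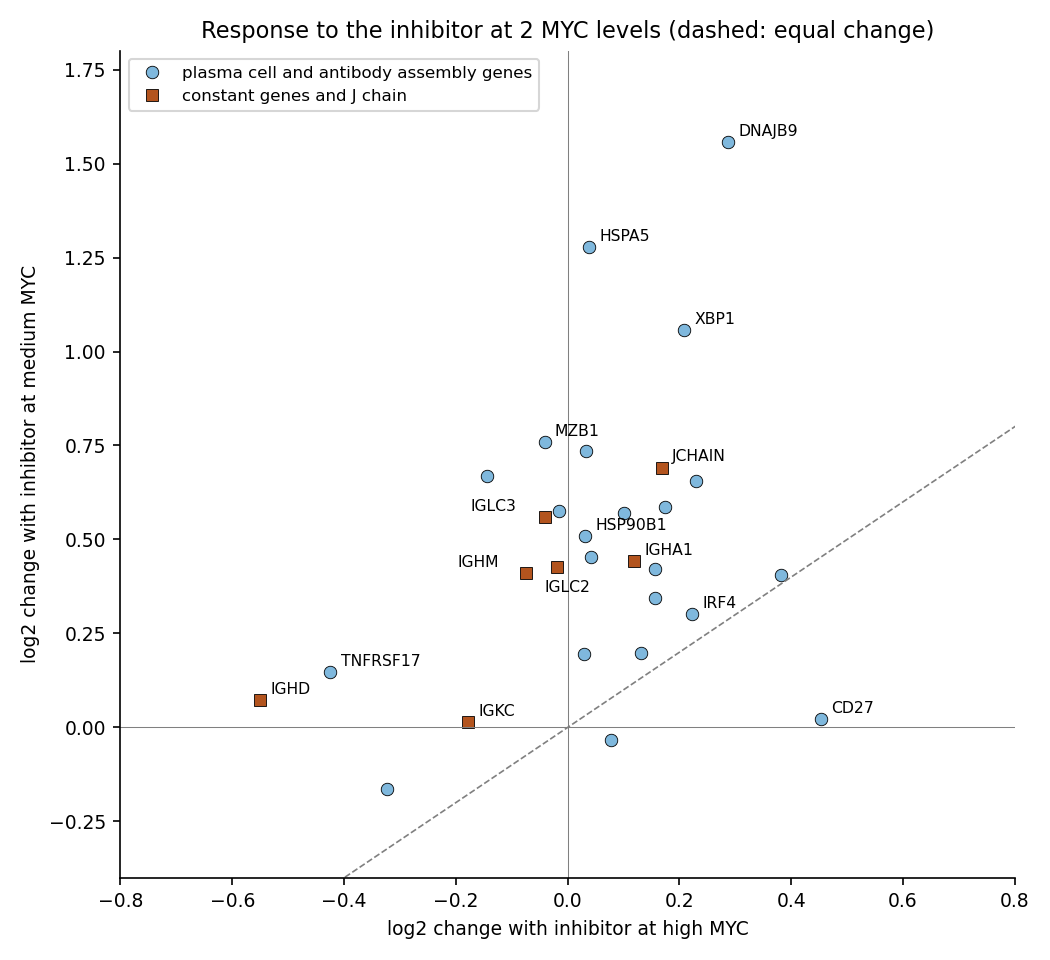
Log2 change with the inhibitor at medium MYC (y axis) against that at high MYC (x axis), with no libraries shared between the axes. Squares are the 7 tested constant and J chain genes, circles the 22 plasma cell and antibody assembly genes, and the dashed line marks equal change. All 7 squares lie above the line, IGHM at -0.07 and 0.41 and JCHAIN at 0.17 and 0.69.

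The share of reads and the balance of chains moved with these changes. All immunoglobulin rows together took 0.475% ± 0.0201 (SD, n = 4) of reads in high MYC controls, 0.448% ± 0.00421 with the inhibitor, 0.252% ± 0.0122 in medium MYC controls and 0.290% ± 0.00495 with the inhibitor. IGKC took 74.9% ± 0.354, 73.4% ± 0.273, 93.6% ± 0.262 and 92.1% ± 0.140 of light chain constant reads in that order. IGLC1 was counted among the lambda reads and IGLL5 was not. There were 0.450 ± 0.0121, 0.418 ± 0.0113, 1.44 ± 0.0194 and 1.09 ± 0.0264 IGKC reads per IGHM read. The kappa to mu ratio was thus higher at medium MYC and came down with the inhibitor there. JCHAIN reads per 100 IGHM reads were 30.9 ± 4.18, 36.3 ± 0.640, 8.75 ± 1.21 and 10.6 ± 0.449. These shares are descriptions with no test, and that of all immunoglobulin rows leaves out JCHAIN and IGLL5.

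**Figure D5:**
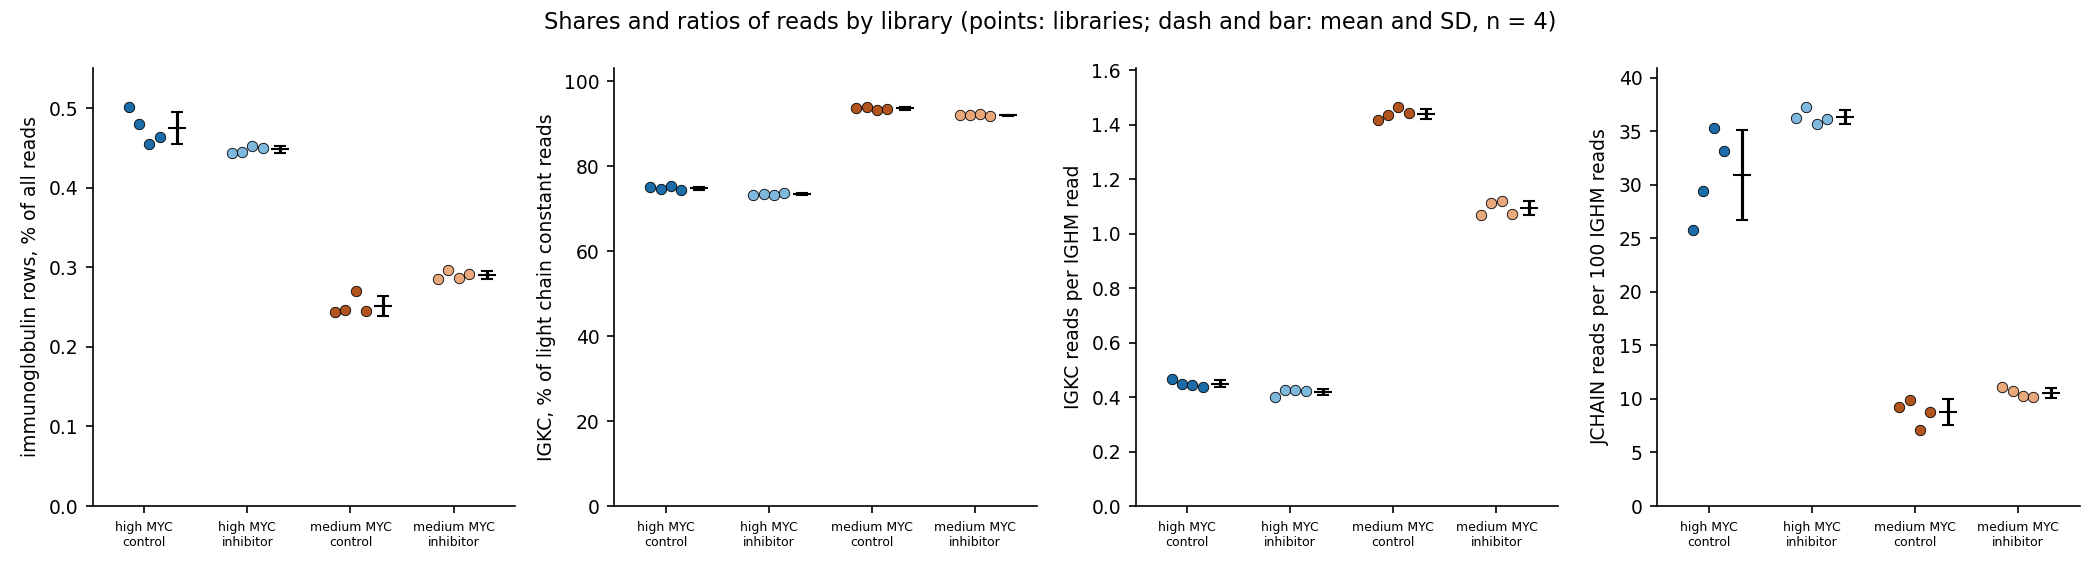
Shares and ratios of reads (y axes, linear from 0) by library in the 4 groups (x axis), with mean and SD (n = 4). The immunoglobulin share falls from 0.475% to 0.252% of reads between high and medium MYC controls, while IGKC reads per IGHM read go from 0.450 to 1.44.

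Plasma cell and antibody assembly genes, listed together, were mostly lower at medium MYC and higher with the inhibitor there. Of 22 plasma cell and antibody assembly genes tested, 17 were lower and 5 higher at medium MYC in controls (median log2 change -0.56), where 37.3% of all tested genes were lower and 38.9% higher (median 0.02). With the inhibitor at medium MYC 17 were higher and 1 lower (median 0.48), against 11.7% higher and 14.6% lower of all tested genes. At high MYC 8 were higher and 3 lower (median 0.09), against 10.5% and 16.3%. HSPA5 (BiP), the chaperone that holds unpaired heavy chains, went from 2988 ± 95.2 (SD, n = 4) to 7244 ± 111 with the inhibitor at medium MYC, a log2 change of 1.28, and from 5020 ± 147 to 5152 ± 42.6 at high MYC, a log2 change of 0.04 that was not called. DNAJB9, a BiP co-chaperone, rose most at medium MYC, by 1.56. MZB1, a chaperone that helps assemble IgM, changed by -2.43 between MYC levels in controls and by 0.76 with the inhibitor at medium MYC. XBP1, the transcription factor of the secretory programme, changed by -1.77 and 1.06. IRF4 went the other way between MYC levels, with 2.39, as did SLAMF7 with 4.42, and DERL3 fell furthest, at -2.498. In the difference of responses 13 of the 22 were lower at high MYC and 1, CD27, was higher, against 5.33% and 3.31% of all tested genes. Of the other abundant members, HSP90B1 (an endoplasmic reticulum chaperone) was at -0.25 and CD38 at -1.23 between MYC levels in controls.

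Of 19 transcription factors that act on immunoglobulin genes, 10 were higher and 6 lower at medium MYC in controls (median 0.11), a share near the 76.2% called over all tested genes. RUNX3 rose most, by 2.67, and MEF2B fell most, by 1.92. The 4 most abundant were IKZF3 (0.00397, not called), IRF4 (2.39), PAX5 (0.38) and ETS1 (0.11). With the inhibitor 6 were higher and 11 lower at high MYC (median -0.20), led by BACH2 at 0.75 and SPI1 at -0.51, where 26.8% of all tested genes were called. At medium MYC 7 were higher and 4 lower (median -0.01), where 26.3% were called.

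The class switch and hypermutation genes gave 5 higher and 12 lower of 20 at medium MYC in controls (median -0.22), where 38.9% of all tested genes were higher and 37.3% lower. The values of the called genes ran from MAD2L2 at 0.56 to UNG at -1.05, and the most abundant were PRKDC (-0.49), XRCC5 (-0.10), XRCC6 (-0.25) and RIF1 (-0.44), which act in DNA end joining. The receptors and STAT and SMAD proteins that feed class choice were higher in 14 and lower in 1 of 16 in the same comparison (median 1.04), with IFNGR1 at 2.86 and TGFBR2 at -0.46. The most abundant were STAT6 (0.37), IL2RG (1.27), SMAD3 (1.195) and TGFBR1 (0.35).

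Among the membrane partners of the B cell receptor, CD79A and CD79B, which carry the signal of the receptor, were at -0.12 and -0.11 between MYC levels in controls, both called lower. CD22, an inhibitory co-receptor, rose by 1.28, and CD81 fell by 0.59. Thus 3 of 6 were higher and 3 lower, where 38.9% of all tested genes were higher and 37.3% lower. The median was 0.21, which the value of CR2 does not enter. CR2 was listed at 0 in all high MYC libraries and had 83.2 normalized counts on average in medium MYC controls. With the inhibitor at high MYC 3 of the 6 were lower and none higher, where 16.3% of all tested genes were lower and 10.5% higher. The same counts held at medium MYC, where 14.6% of all tested genes were lower and 11.7% higher. Of the Fc and immunoglobulin receptors 6 of 8 tested were higher and 1 lower at medium MYC in controls (median 1.07), where 38.9% of all tested genes were higher and 37.3% lower. The lower one was FCMR, the receptor for IgM, at -0.33. The largest rise was that of CD300A, from 1.31 to 49.2 normalized counts (4.58 on the log2 scale). FCER2 (CD23), a receptor for IgE and the most abundant, rose by 2.20, FCGR2B by 0.25 and FCGR2C by 0.91. Of the surrogate light chain and recombination genes only VPREB3 passed the filter. RAG2 was at 0 in every library, and RAG1 had a mean of 1.07 and IGLL1 of 1.62 normalized counts.

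Markers of cell states and other cell types were read beside these results. Of 7 plasma cell markers, 6 were lower and 1 (IRF4) higher at medium MYC in controls (median -1.23), where 37.3% of all tested genes were lower and 38.9% higher. Their summed level was 8231 to 8402 in high MYC controls, 8949 to 9296 with the inhibitor, 12501 to 13256 in medium MYC controls and 15984 to 16517 with the inhibitor. The sum thus rose where the median fell, and IRF4, at 10657 of it on average in medium MYC controls against 2036 in high MYC controls, was the only one of the 7 that was higher. Of 8 B cell markers 6 were higher and 2 lower in the same comparison (median 0.75). The summed levels of the 4 lists of other cell types' markers were higher at medium MYC, but single markers differed. In controls COL1A1 (a collagen) had a log2 change of 4.39 and EPCAM (epithelial) of -2.23, both called, while CD3G (-0.39) and LYZ (0.06) were not called. The 6 T cell markers summed to 90.5 to 108 in high MYC controls, 57.2 to 78.8 with the inhibitor, 185 to 243 in medium MYC controls and 156 to 190.1 with the inhibitor, with CD3D at a mean of 0.570 and CD8A at 0.0630 over all libraries. The 5 myeloid markers summed to 118 to 136, 108 to 119, 263 to 292 and 247 to 276 in the same order, with FCGR1A at a mean of 0.109. The 4 NK cell markers summed to at most 4.41, 1.04, 26.5 and 22.8, with NCR1 at 0, and the 5 epithelial or stromal markers to 186 to 199, 136 to 161, 593 to 662 and 514 to 561. The part of these markers' cell types and states in the changes of the constant genes was not tested.

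The genes most like each member in level over the 16 libraries were found by Pearson's r of log2 values among genes outside the immunoglobulin loci. These are descriptions, since the libraries share 4 group means and their scaling. IGHM was most like the amino acid transporter SLC7A5 (r = 0.998), with RPL36A and SLC43A1 next. JCHAIN was most like CNBP (r = 0.999), SLC16A1 and RPL14. IGLC2 was most like RPL36A, RPL19 and IMPDH2, and IGLC3 most like SLC43A1, RPS4X and RPUSD4. IGHA1 was most like NOP53 (r = 0.976), RPN1 and SLC1A5. IGKC, whose groups hardly differ, was most like the histone genes H2AC13 (r = 0.950), H2AC12 and HIST1H3B. IGHD was most like ERBB2 (r = 0.888), FURIN and MEPCE.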

How the data were processed

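RNA of 16 libraries was read on an Illumina HiSeq instrument after a Nugen cDNA kit, per the labels' protocols. The values are a signal that the authors deposited as normalized counts per Ensembl gene. STAR 2.5.2a, RSEM 1.2.31, DESeq2 1.16.1 and build GRCh38 are named in the submitters' processing notes, and their settings, use of strand and treatment of shared reads are not given in the sources used here. All values of a library were whole multiples of 1 step (tolerance 1e-06), which gave whole reads. Symbols matched 56948 of 58051 rows. Positions and exon lengths are from GENCODE release 29.

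The test was limma 3.58.1 in R 4.3.3 with a mean trend, on log2 of the normalized count plus 1, for the 13765 genes whose mean reached 10. All 16 libraries entered 1 fit with 4 group means, and calls are two-sided at a Benjamini-Hochberg adjusted p-value under 0.05 over all tested genes. Fold changes of low genes are understated on this scale. The fit was tested on simulated counts. Genes and lists were chosen with earlier results of these data known. All 10 genes are named. Of the lists, up to 4 of the most abundant members and the largest called changes between MYC levels in controls are named, as are leading segments of the loci and the 3 genes most like each member in level. XBP1, MZB1 and the single markers of other cell types were chosen after their values were seen. Alternatives were other scalings, pseudocounts of 0.1 and 10, other filters, no mean trend, the compared groups only, a replicate block, count tests on the whole reads (edgeR 4.0.16, DESeq2 1.42.0), and leaving out each library. A correction for GC content (5 spline degrees of freedom, 99.5% of tested genes) was added after seeing the data. The intervals of the log2 changes come from the limma fit and measure only the spread between these libraries. Floors cover counting error only. A result of 1 gene of these lists is not reported here.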

Additional observations from a re-analysis of the deposited data

Results flagged for a closer look

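In 5 of 28 sets of 4 libraries, 1 library stood apart from the other 3 by Dixon's criterion, which chance alone gives in about 1 of 20 sets. Medium MYC control replicate 3 was the highest of its group for IGHM (8286, others 7391 to 7434), IGKC (12131, others 10477 to 10723) and IGLC2 (249, others 200.3 to 206). IGLC3 was high in high MYC inhibitor replicate 3 (589.9, others 474 to 489) and low in medium MYC control replicate 1 (82.4, others 108 to 111).

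In 6 of the 7 tested genes the responses to the inhibitor at high and medium MYC differed by limma's test of the difference. Over all tested genes 8.63% were called, 5.33% with the lower response at high MYC. The call of IGHA1 was lost in 14 of 30 alternatives. The differences, high minus medium MYC on the log2 scale, were -0.48 for IGHM (-0.485), -0.62 for IGHD (-0.623), -0.32 for IGHA1 (-0.323), -0.45 for IGLC2 (-0.446), -0.60 for IGLC3 (-0.599) and -0.52 for JCHAIN (-0.523).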

How the results depend on the processing

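Of the 26 called changes of the 7 genes, 23 kept their direction and their call under all alternatives run, up to 31 for each. The exceptions were JCHAIN with the inhibitor at high MYC (lowest 0.11), IGHA1 in the difference of responses (-0.38 to -0.28) and IGKC between MYC levels under the inhibitor. Counts of called members and of all called genes stayed within 1.5 times. Sign changes were near 0 for the most part. Quantile normalization gave 0.0193 for IGLC2 at high MYC, -0.0285 for IGKC with the inhibitor at medium MYC and 0.338 for IGKC between MYC levels in controls. GC correction, with or without the replicate block, gave 0.0555 for IGLC2, 0.0336 for IGLC3 and 0.0193 for IGHM at high MYC, and -0.0587 for IGKC and -0.00286 for IGHD between MYC levels under the inhibitor. It moved the median of all genes from 0.021 to -0.114 there and from 0.0174 to -0.0959 in controls. With 1 library left out, IGLC2 at high MYC ran from -0.0473 to 0.00632 and IGLC3 from -0.115 to 0.0145. IGKC ran from -0.0689 to 0.0262 between MYC levels in controls and from -0.00808 to 0.0624 with the inhibitor at medium MYC, and IGHD there from -0.0318 to 0.171. The causes were not tested.

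Replicate numbers showed no general pairing of the libraries, since mean correlations of same-numbered deviations lay between -0.0716 and 0.0242. The highest single correlation was 0.239, for replicate 4 of the high and medium MYC controls. With the replicate block JCHAIN at high MYC had a limma adjusted p-value of 0.0604, and no other call of the 7 genes changed. Without mean trend it had 0.104, without filter 0.0775 and after quantile normalization 0.0865, and IGHA1 in the difference had 0.0804, 0.0631 and 0.0503.

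Counting only the 10 genes, the immunoglobulin share was 0.444%, 0.433%, 0.195% and 0.231%, and the kappa share 87.7%, 86.5%, 97.2% and 96.2%, at high MYC without and with the inhibitor and at medium MYC without and with it. JCHAIN is among the 10 genes but is not in the share of all immunoglobulin rows. Variable segments and other constant rows are left out of the 10-gene shares, so the kappa share there counts only IGLC2 and IGLC3 as lambda. Depth limits the gamma and epsilon genes, at 5 reads or fewer in a library.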
